A study of Homo sapiens with 6 samples.

Results

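The genes for the FGF receptors FGFR1, FGFR2, FGFR3 and FGFR4 and for the ligands FGF19, FGF4 and FGF3 of chromosome band 11q13 were followed in T47D compartments. These 7 genes, of 20090 protein-coding genes, were chosen by name and not by a cut on their values. Earlier results of these data were known when they were chosen. They overlapped 9 of the 30376 bins of 100 Kb, and with 10 bins on either side they gave 5 windows of 109 bins, since the 3 ligand genes share a window. Of these bins, 107 had a score in all 6 libraries.

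T47D is an established breast cancer cell line that carries the estrogen receptor. Parental T47D cells were deprived of hormone for 72 h and collected without estradiol (T0) or 1, 4, 16 and 24 h after addition of 100 nM estradiol, also called E2 (T1, T4, T16 and T24). Tamoxifen-resistant T47D cells (TamR) were the sixth condition. Their label calls them untreated, whereas the methods of the study describe TamR cells as kept in 100 nM tamoxifen, and whether the line is a single clone was not given in the sources used here. Tethered chromatin capture (TCC), a form of Hi-C, records which stretches of the genome touch each other. Each bin carries a score, the first eigenvector of the contacts between chromosomes, given here multiplied by 1000. A positive score places the bin in compartment A, the active part of the nucleus, and a negative score in compartment B, the inactive part. Scores are scaled within a library, so the percentile of a score among the 27898 bins scored in all libraries is given beside it. Each condition had 1 library, so no difference between conditions could be set against the spread between replicates. Across all scored bins the parental libraries correlated with each other at 0.985 to 0.996 and with TamR at 0.894 to 0.901. RNA and copy number of these genes were not analysed here, and neither was the identity of the cells, which compartment scores do not show.

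FGF receptors are tyrosine kinases of the cell surface that pair up when a secreted FGF binds them together with heparan sulfate or a klotho protein. The active receptor passes its signal through the docking protein FRS2 to the MAPK and PI3K pathways, and sprouty and spred proteins damp it. The receptor genes lie on different chromosomes, and FGFR1 on 8p and the 11q13 block with the cell cycle gene CCND1 are known as regions that are often amplified in estrogen receptor-positive breast cancer. FGF19 acts as an endocrine ligand through FGFR4 and the co-receptor KLB, whereas FGF3 and FGF4 act near the cells that secrete them.

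The receptor genes had unlike scores in TamR, and stretches before gene starts, where available, are shown as background, with FGF3 included. These are reference sequences, the same for every library, so they cannot show a difference between T0 and TamR. Upstream sequences from RefSeq were used for 4 of the 7 genes, with 9 entries in all, and not for FGFR1, FGF4 and FGF19. Positions are hg19 (GRCh37), bases inside any GENCODE exon were cut off, the sequences read 5′ to 3′ on the gene's strand, and capitals mark CG dinucleotides.
FGFR2, first start, chr10:123357973-123358208, minus strand: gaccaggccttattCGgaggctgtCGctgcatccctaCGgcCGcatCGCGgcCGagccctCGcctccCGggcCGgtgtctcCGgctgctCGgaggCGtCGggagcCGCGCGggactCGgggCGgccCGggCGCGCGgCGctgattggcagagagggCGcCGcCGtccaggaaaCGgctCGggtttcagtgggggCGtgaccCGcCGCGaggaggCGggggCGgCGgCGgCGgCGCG
FGFR2, start inside the gene, chr10:123290869-123291078, minus strand: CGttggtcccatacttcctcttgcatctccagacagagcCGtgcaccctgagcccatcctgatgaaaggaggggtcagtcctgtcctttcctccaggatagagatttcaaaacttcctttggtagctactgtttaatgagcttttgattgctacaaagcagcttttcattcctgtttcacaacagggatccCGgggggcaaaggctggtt
FGFR3, chr4:1794770-1795019, plus strand: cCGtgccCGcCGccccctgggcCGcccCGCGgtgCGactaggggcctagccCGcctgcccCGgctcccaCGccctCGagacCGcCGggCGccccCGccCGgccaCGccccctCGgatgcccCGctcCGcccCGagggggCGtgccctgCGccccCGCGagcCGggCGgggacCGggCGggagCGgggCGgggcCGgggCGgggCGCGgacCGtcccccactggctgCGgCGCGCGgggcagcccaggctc
FGFR4, first start, chr5:176513666-176513905, plus strand: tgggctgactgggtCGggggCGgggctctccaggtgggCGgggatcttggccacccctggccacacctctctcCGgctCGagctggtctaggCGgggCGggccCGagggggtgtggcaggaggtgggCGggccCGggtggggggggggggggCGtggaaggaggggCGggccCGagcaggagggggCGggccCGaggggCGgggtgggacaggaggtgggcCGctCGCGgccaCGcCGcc
FGF3, chr11:69634185-69634434, minus strand: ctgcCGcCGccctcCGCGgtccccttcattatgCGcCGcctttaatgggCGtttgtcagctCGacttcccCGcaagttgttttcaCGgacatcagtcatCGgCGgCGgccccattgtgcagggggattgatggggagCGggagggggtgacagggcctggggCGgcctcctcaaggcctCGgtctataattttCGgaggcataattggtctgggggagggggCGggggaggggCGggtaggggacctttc
The 250 bases before the first FGFR2 start held 42 CG, a number reached by 1.38% of 35116 RefSeq entries, whose median was 11. FGFR3 held 40 (reached by 2.16%), FGFR4 24 (23.7%) and FGF3 19 (34.6%). The second FGFR4 start held 2 (85.3%). The start inside FGFR2, in an intron of the longer transcripts, held 4 (70.7%), and the other 3 FGFR2 entries held 3, 6 and 7. The estrogen response element was searched as GGTCA, any 3 bases and its reverse complement TGACC, a motif that reads the same on both strands. It matched none of the 9 entries of these genes and 0.0399% of all entries. With a share this low, no match among 9 entries says nothing particular about these genes. The FGFR2 starts printed here lay in bins of compartment A in every library. The bin of the first start scored 3.45 in T0 and 8.18 in TamR, and the bin of the inner start 3.24 and 7.84.

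All 7 genes lay in compartment A in each of the 6 libraries, as did 71.6% of 19710 protein-coding genes with a score. They differed in how deep in A they were. In T0 FGFR3 had the highest score (12.96), followed by FGFR4 (12.4), FGF3 (10.9), FGF19 and FGF4 (10.8, in one bin), FGFR1 (5.65) and FGFR2 (3.35). Over the 5 parental libraries the scores of FGFR3 and FGFR4 overlapped, as did those of FGF3 and FGF19. FGFR4 stayed above the ligands, the ligands above FGFR1, and FGFR1 above FGFR2 in 5 of 5 parental libraries. In TamR the order of the last pair was turned round. FGFR1 minus FGFR2 was between 1.54 and 2.66 in the parental libraries and -7.45 in TamR.

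**Figure D1:**
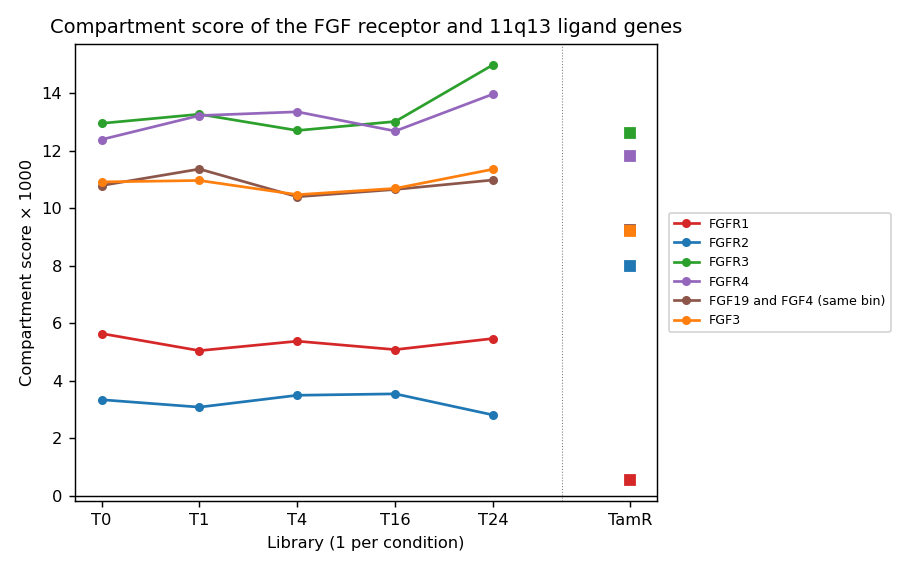
Compartment score multiplied by 1000 (y axis) of each gene in the 6 libraries (x axis, 1 library per condition, circles parental and squares TamR). FGFR1 lies between 5.05 and 5.65 in the parental libraries and at 0.553 in TamR, and FGFR2 between 2.82 and 3.55 and at 8.01.

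FGFR1 (ENSG00000077782.23_17, chromosome 8 from 38257733 to 38326352) encodes the receptor of many FGF ligands in mesenchymal and epithelial cells. Its 2 bins scored 5.65 in T0, 5.05 in T1, 5.38 in T4, 5.09 in T16, 5.47 in T24 and 0.553 in TamR. The parental values spanned 0.595, and TamR minus the lowest of them was -4.50. The percentile was 79.2 to 81.4 in the parental libraries and 55.4 in TamR, just inside A. Of all scored bins, 3.82% had a TamR minus T0 percentile difference at least as low as that of FGFR1 (-25.3 points), and of 19710 protein-coding genes 221 did (1.12%). FGFR1 was near the border between the compartments in TamR, without a change of compartment.

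The bins around FGFR1 shared this difference. TamR was below all 5 parental scores in 22 of 22 window bins, against 43.6% of all scored bins. The stretch with such scores ran from 36500001 to 42000000 on chromosome 8, or 55 bins, with a mean of 1.51 in T0 and -2.11 in TamR. Runs of at least this length held 11.4% of all bins in which TamR was below the parental scores, and the median run was 2 bins. The stretch also holds KCNU1, SFRP1, a secreted inhibitor of Wnt signalling, the tryptophan-degrading enzymes IDO1 and IDO2, and the histone acetyltransferase KAT6A. The run of A bins that contains FGFR1 was 1.6 to 2.0 Mb long in the parental libraries and 0.9 Mb in TamR, where its upper border lay 1 bin beyond the gene, against 6 to 8 bins in the parental libraries.

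In the FGFR1 window 7 of 22 bins were in A in T0 and in B in TamR, and 0 moved the other way. The same change was seen in 6.27% of all scored bins. In T0 17 of the 22 window bins were in A, against 46.2% of the bins scored in T0. The window thus had more A bins that could change, and shares among A bins alone were not computed. Protein-coding genes that start in these 7 bins were ZNF703, ERLIN2, TACC1, PLEKHA2, HTRA4, TM2D2, ADAM9 and ADAM32. The bin of ZNF703, a transcriptional co-repressor of luminal breast cells, and ERLIN2 scored 1.70 in T0 and -1.12 in TamR. The bin with the start of TACC1, a gene of a centrosomal coiled-coil protein, scored 4.99 in T0, 4.14 to 5.30 in the parental libraries and -0.257 in TamR. HTRA4, TM2D2 and the membrane metalloprotease gene ADAM9 share a bin that scored 4.50 in T0 and -0.351 in TamR, and the bin of ADAM32 scored 1.65 and -1.92. The values of TACC1, PLEKHA2 and ADAM9 in TamR lay near the border. NSD3, a histone methyltransferase gene that shares a bin with FGFR1, stayed in A with a score of 6.25 in T0 and 0.546 in TamR.

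**Figure D2:**
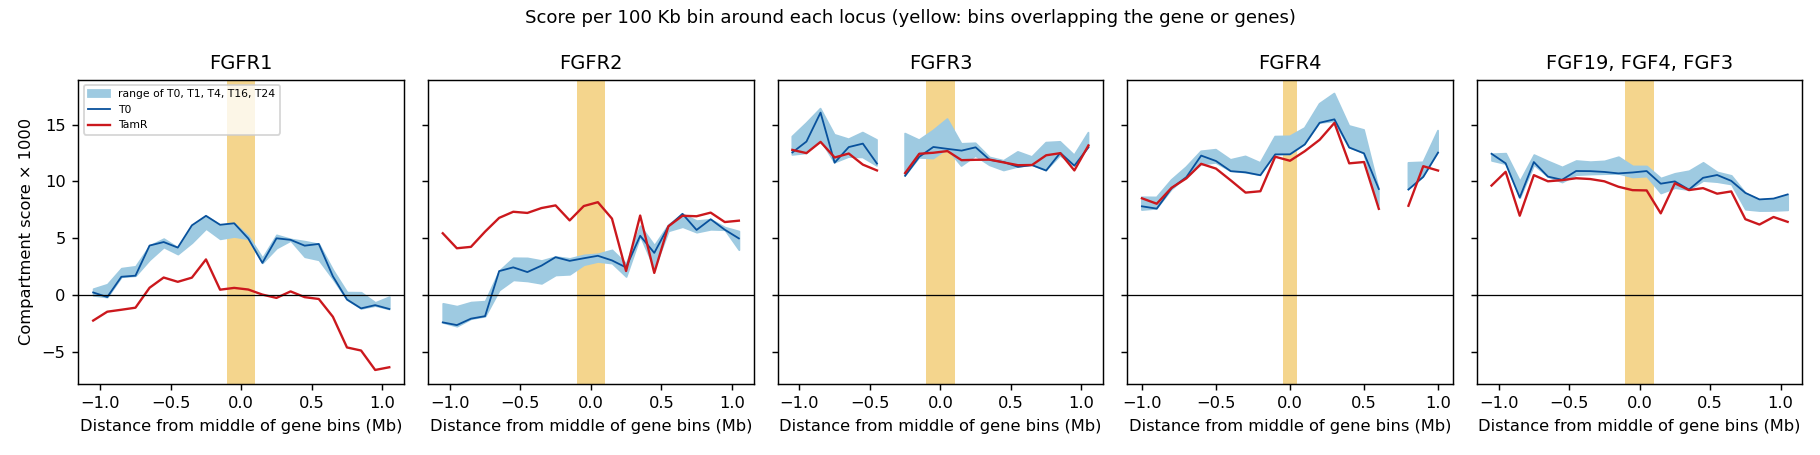
Score multiplied by 1000 of each 100 Kb bin (y axis) against the distance in Mb from the middle of the gene bins (x axis), for 5 loci, with T0 in dark blue, the range of the 5 parental libraries in light blue and TamR in red. TamR is below the parental range in all 22 bins at FGFR1, above it in 18 of 22 bins at FGFR2, and gaps are bins without a score.

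FGFR2 (ENSG00000066468.24_16, chromosome 10 from 123237846 to 123357972) encodes a receptor whose splice forms differ between epithelium and mesenchyme. Its 2 bins scored 3.35 in T0, 3.09 in T1, 3.501 in T4, 3.55 in T16, 2.82 in T24 and 8.01 in TamR. TamR lay 4.46 above the highest parental value, while the parental values spanned 0.734. The percentile was 70.4 to 72.2 in the parental libraries and 88.5 in TamR. Of all scored bins 10.3% had a TamR minus T0 percentile difference at least as high (17.7 points), and of the 19710 genes 1234 did (6.26%). Ranked among the bins of chromosome 10 alone, the difference was 29.6 points. FGFR2 was deeper in A in TamR, and its place among all protein-coding genes was less extreme than that of FGFR1. Ranked within its own chromosome FGFR1 had a difference of -19.5 points, smaller in size than that of FGFR2.

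The FGFR2 window was not uniform. TamR was above all 5 parental scores in 18 of 22 bins, against 35% of all scored bins. On the side of lower coordinates the 10 flanking bins had a mean of 0.646 in T0 and 6.29 in TamR, with parental means from -0.0982 to 1.54. On the other side the means were 5.07 in T0 and 5.799 in TamR, with parental means from 4.64 to 5.39. The stretch above the parental scores ran from 121300001 to 123500000, or 22 bins, and ended 1 bin beyond FGFR2. Runs of at least this length held 46.8% of all bins in which TamR was above the parental scores. The stretch contains TIAL1, the co-chaperone gene BAG3, INPP5F, MCMBP, SEC23IP, PLPP4, WDR11 and FGFR2.

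The border between B and A lay 6 bins below FGFR2 in 5 of 5 parental libraries, at 122600001, and 32 bins below it in TamR, at 120000001. Within the window 4 of 22 bins were in B in T0 and in A in TamR, and 0 moved the other way, against 7.67% of all scored bins. The window had 4 bins in B in T0, so all of its B bins changed. The share among all B bins of the genome was not computed. PLPP4, a gene of a lipid phosphatase, was the only protein-coding gene to start in these 4 bins, and its bin scored -2.41 in T0, -0.734 at most in the parental libraries and 5.44 in TamR. WDR11, next to the border in the parental libraries, scored 2.10 in T0, 0.441 to 2.14 in the parental libraries and 6.80 in TamR. ATE1, on the other side of FGFR2, had a mean of 3.56 in T0 and 5.28 in TamR, and TACC2, a relative of TACC1, had 5.66 and 5.48, within its parental range of 4.93 to 5.87.

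FGFR3 and FGFR4 lay deep in A in every library. FGFR3 (ENSG00000068078.20_14, chromosome 4 from 1795020 to 1810599), a receptor known for its role in cartilage growth, scored 12.96 in T0, 13.3 in T1, 12.7 in T4, 13.02 in T16, 14.99 in T24 and 12.6 in TamR. TamR minus the lowest parental score was -0.103, a small gap beside the parental span of 2.29, and its percentile of 97.9 was inside the parental range of 97.6 to 98.6. FGFR4 (ENSG00000160867.15_14, chromosome 5 from 176513906 to 176525145), the main receptor of FGF19, scored 12.4 in T0, 13.2 in T1, 13.4 in T4, 12.7 in T16, 13.98 in T24 and 11.8 in TamR. Its percentile in TamR was 96.9, against 97.1 to 98.3 in the parental libraries. No bin of either window was in B in any library.

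The neighbours of these receptors were also deep in A. The histone methyltransferase gene NSD2 beside FGFR3 scored 12.8 in T0 and 12.3 in TamR, and NSD1 beside FGFR4 scored 13.6 and 12.7. TACC3, which lies within a bin of FGFR3, scored 13.04 in T0 and 12.5 in TamR. NSD2 and NSD1 also share a bin with the receptor beside them, so these values are partly the same measurements as those of the receptors. FGFRL1, which encodes a receptor-like protein without a kinase and lies in the FGFR3 window, scored 11.7 and 12.1. In the FGFR3 window TamR was below all parental scores in 6 of 21 bins and above them in 0, against 43.6% and 35% of all scored bins. In percentiles TamR was below in 1 and above in 7, against 43.1% and 36.2% of all scored bins. In the FGFR4 window it was below in 15 and above in 0 of 20 bins by score, and below in 12 and above in 2 by percentile. The median percentile of the FGFR4 window was 95.5 in TamR, inside the parental range of 95.2 to 95.9. The A run around FGFR3 began at the chromosome end and reached 5000000 to 5200000 in the parental libraries and 8900000 in TamR. That around FGFR4 was 11.2 to 11.3 Mb long in the parental libraries and 10 Mb in TamR.

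The 3 ligand genes of 11q13 lie within a stretch of chromosome 11 from 69513006 to 69634184. FGF19 (ENSG00000162344.4_8) and FGF4 (ENSG00000075388.4_8) share a bin, so their values are the same and are not 2 measurements. That bin scored 10.8 in T0, 11.4 in T1, 10.4 in T4, 10.7 in T16, 10.99 in T24 and 9.24 in TamR. The bin of FGF3 (ENSG00000186895.4_10) scored 10.9, 10.97, 10.5, 10.7, 11.4 and 9.21 in the same order. TamR was lower than every parental library in both bins, and TamR minus the lowest parental score was -1.17 for FGF19 and FGF4 and -1.26 for FGF3. In percentiles the difference from T0 was small, at -2.79 points for FGF19 and FGF4 and -3.05 for FGF3. Differences at least as low as that of FGF3 were found in 39.9% of all scored bins.

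The whole 11q13 window stayed in A in all 6 libraries, 22 of 22 bins. TamR was below all parental scores in 20 of 22 bins, against 43.6% of all scored bins. It was below all parental percentiles in 19, against 43.1%. CCND1, which encodes cyclin D1, and LTO1 share the bin next to FGF19, with a score of 10.7 in T0, 10.7 to 12.2 in the parental libraries and 9.54 in TamR. The chloride channel gene ANO1 scored 9.87 in T0 and 9.50 in TamR, the cell death adaptor gene FADD 10.3 and 9.41, and CTTN, the gene for the actin-binding protein cortactin, 10.1 and 9.12. PPFIA1 scored 10.3 and 9.02, MYEOV 10.5 and 10.2, and SHANK2, at the upper edge, 8.92 and 7.03. FADD lies in a bin of ANO1 and CTTN in a bin of PPFIA1, so their values are partly the same measurements. The A run that holds the ligands was 18.4 to 18.5 Mb long in the parental libraries and 18.3 Mb in TamR, with borders at least 86 bins from the genes.

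**Figure D3:**
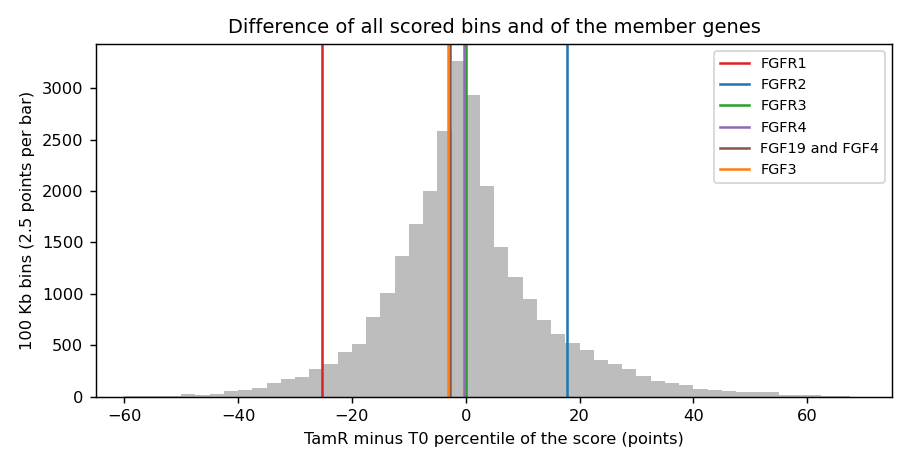
Number of 100 Kb bins (y axis) by TamR minus T0 percentile of the score (x axis, in points, 2.5 points per bar) for the 27898 scored bins, with the genes as lines. The x axis starts at -65, and the few bins below that are not shown. FGFR1 lies at -25.3 and FGFR2 at 17.7, and the other 5 genes between -3.05 and 0.0609.

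Over the 5 windows, 11 of 107 scored bins had different compartments in T0 and TamR, against 13.9% of all scored bins. All 11 lay in the windows of FGFR1 and FGFR2. Without the bins nearest the border (lowest 10% by absolute score) 7 of 94 differed, and with 5 flanking bins in place of 10 the count was 3 of 58. Over the E2 course 4 of 107 bins differed from T0 at some time point, against 7.11% of all scored bins, and all 4 lay at the edges of the FGFR1 window. Without the bins nearest the border in the parental libraries 0 of 97 differed. Leaving out such bins removes those that change sign most easily, and the shares of all scored bins after it were not computed. The number of the 107 bins that differed was 1 at T1 (3.16% of all scored bins), 2 at T4 (3.05%), 3 at T16 (3.8%) and 4 at T24 (5.17%). The comparisons over E2 and that with TamR share the T0 library. None of the 7 genes changed compartment over the E2 course, against 5.31% of all protein-coding genes. With a share this low and 7 genes, of which FGF19 and FGF4 share a bin, this says nothing particular about these genes.

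The order of the parental libraries differed between loci, and at the receptors deepest in A it depended on the scale. T24 had the highest of the 5 parental scores in 17 of 21 bins of the FGFR3 window and 17 of 20 bins of the FGFR4 window, against 29.4% of all scored bins. By percentile T24 was highest in 5 and 7 of these bins, against 23.9% of all scored bins. T4 had the lowest score in 12 bins of the FGFR3 window and 14 of 22 at 11q13, against 16% of all scored bins. By percentile T4 was lowest in 10 and 13 bins, against 13.7% of all scored bins. At FGFR4 T0 was lowest in 11 bins on either scale, against 23.1% of all scored bins by score and 24% by percentile. In the FGFR2 window T16 had the highest score in 16 of 22 bins, 4 of them in B, against 15% of all scored bins. By percentile it was highest in 17, against 16.7%. T24 had the lowest score there in 13 bins, against 31.8%, and the lowest percentile in 8, against 29%. Neighbouring bins are not independent, and each time point had 1 library, so these counts describe the libraries.

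The bins of all 7 genes were richer in G and C than most. Their GC content was 45.9% for FGFR1 and 45.9% for FGFR2, 50.04% for FGFR4, 51.9% for FGF19 and FGF4, 52.5% for FGF3 and 56.9% for FGFR3, against a median of 39.8% over all scored bins. FGFR1 and FGFR2 had nearly the same GC content, and their TamR minus T0 score differences were -5.09 and 4.66. A link between GC content and these differences was not tested. The windows held 25 gene starts at FGFR1 and 11 at FGFR2, 35 at FGFR3, 41 at FGFR4 and 19 at 11q13.

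The other 40 genes of the FGF pathway were read in the same way. In T0 29 of the 40 lay in A (72.5%, against 77.4% of all protein-coding genes) and in TamR 30 did (75%, against 78.1%). Between T0 and TamR 3 of the 40 (7.5%) changed compartment, against 9.6% of all protein-coding genes (4.45% from A to B and 5.15% from B to A). By the bin of the gene start 5 of the 40 did, against 9.72% of all protein-coding genes, so the side of the background on which the list lay depended on the bins taken. The median TamR minus T0 percentile difference was -1.97 points, against -0.439 points over all protein-coding genes. Of the 15 other secreted ligands 9 were in A in T0, 1 moved from A to B and 1 from B to A. FGF9 scored 0.793 in T0, 0.201 to 1.27 in the parental libraries and -2.66 in TamR. FGF2, the first described heparin-binding FGF, scored -0.216 in T0, -1.09 to 0.256 in the parental libraries and 0.415 in TamR, all near the border. The lowest differences of the lists were those of FGF10 (-36.1 points) and FGF7 (-25.4 points), stromal ligands of the epithelial form of FGFR2. FGF10 was in B throughout, with -2.14 in T0 and -8.14 in TamR, and so was FGF7, with -2.33 and -6.70.

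All 9 adaptor genes and all 3 co-receptor genes were in A in every library by the gene mean, as were 71.6% of all protein-coding genes. The bins of the gene starts of the adaptor SOS1 and the co-receptor KL were in B in TamR, at -0.335 and -0.442. Their means in TamR were 0.387 and 0.797, near the border. FRS2, the docking protein, scored 3.88 in T0 and 2.38 in TamR, and GRB2 13.7 and 13.3. PLCG1, the phospholipase that binds the active receptor, had the lowest difference of the adaptors (-20.2 points), with scores of 5.69 in T0 and 1.52 in TamR. KLB, the co-receptor for FGF19, scored 7.37 in T0 and 6.79 in TamR. Of the 9 inhibitor genes 7 were in A in T0 and in TamR, and 0 changed compartment between them. SPRED1 had a difference of 26.4 points and stayed in B, with -5.41 in T0 and -0.393 in TamR. SPRY3 had a difference of 16.4 points, with 3.33 and 7.48. Of the 4 intracellular FGF genes, whose proteins are not secreted, FGF12 moved from B to A and had the highest difference of the lists (32.9 points), with -5.16 in T0 and 1.10 in TamR.

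**Figure D4:**
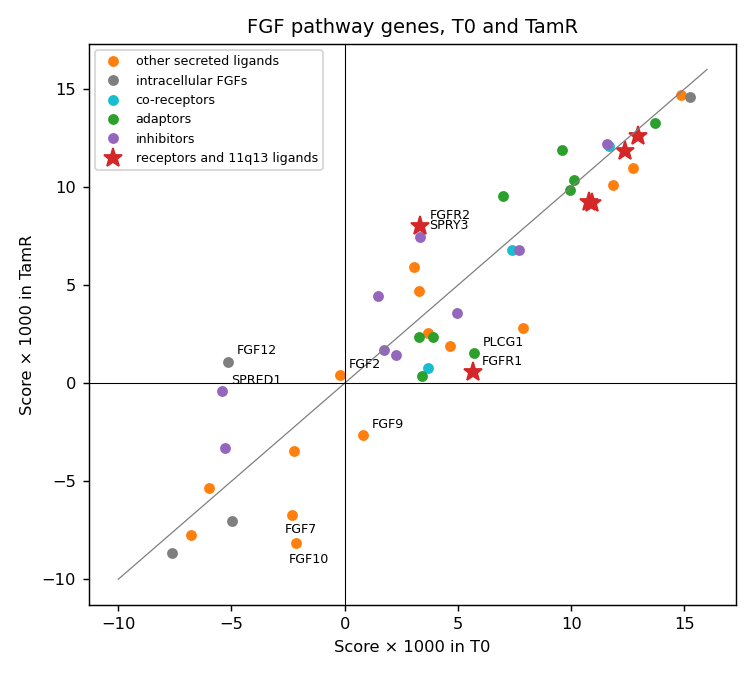
Score multiplied by 1000 in T0 (x axis) and TamR (y axis) of the receptors and 11q13 ligands (stars) and of 40 other FGF pathway genes (circles, coloured by role), 1 library each. FGFR2 and SPRY3 lie together above the diagonal of equal scores, and FGFR1 and PLCG1 together below it.

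The genes on other chromosomes most like each locus were taken by the root mean square difference of the 6 percentiles. FGFR1 was nearest to SELENOT (1.04 points) and its neighbour EIF2A (1.26 points) on chromosome 3. FGFR2 was nearest to SLC30A6 on chromosome 2 (0.955 points) and ZNF830 on chromosome 17 (1.17 points). FGFR3 was nearest to TENT5B and TRNP1, which share a bin of chromosome 1 (0.206 points). FGFR4 was nearest to GANAB (0.296 points) and SLC7A5 (0.364 points), and the 11q13 ligands to NFAT5 (0.244 points) and UTP4 (0.345 points). SELENOT scored 5.69 in T0 and 0.438 in TamR, and SLC30A6 3.22 and 7.36.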

How the data were processed

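TCC was performed by the authors in T47D cells under 6 conditions, with 1 library each. The authors deposited a compartment score for each bin of 100 Kb (hg19), taken from the first eigenvector of contacts between chromosomes after iterative bowtie2 alignment, removal of low-coverage bins, iterative correction and removal of contacts within chromosomes with HiCLib. Whether replicate cultures were pooled was not given in the sources used here. Scores were multiplied by 1000, and a score of 0 was treated as missing. The runs of A bins around the genes were followed across missing bins. Gene positions came from GENCODE release 44 mapped to GRCh37, whose chromosome lengths equalled the ends of the bins on 23 of 23 chromosomes. The score of a gene was the mean over its bins, and its percentile was taken among the 27898 bins scored in all 6 libraries. With 1 library per condition no test was run and no p-value is given. The files hold no contact counts, so the depth is unknown, and no interval could be given for a score.

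Genes named were the 7 members, fixed neighbours, genes that start in a window bin with another compartment in TamR, pathway genes with another compartment in TamR or among the 3 largest percentile differences in each direction, and the 2 most alike genes per locus. FRS2, GRB2, KLB, KL, SOS1 and the genes inside the longer stretches around FGFR1 and FGFR2 were named after their values were seen. The members, lists and alternatives were chosen with earlier results of these data known. Upstream sequences were those of RefSeq (assembly GRCh38.p14), placed in GRCh37 by exact match. Python 3.11.15, numpy 2.4.6, pandas 2.3.3 and matplotlib 3.10.9 were used, and the functions for bins, percentiles and compartment changes were tested on simulated tracks.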

Additional observations from a re-analysis of the deposited data

How the results depend on the processing

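No paired analysis was possible because every group holds 1 library. The files give no contact counts, so what depth limits was not assessed. A score or percentile difference was compared with the SD of the 5 parental libraries, which are conditions and not replicates, and a count was taken as moved when it changed by over 1.5 times. No score difference and no percentile difference changed sign under the alternatives on its own scale. Between the scales the sign differed at FGFR3, where TamR minus T0 was -0.352 by score and 0.0609 points by percentile. The number of the 7 genes in A was 7 in each library under all alternatives. Except for the width of the flanks, which changes how many bins are counted, the cause was not tested.

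The TamR minus T0 score at FGFR1 was -4.49 in the bin of the gene start, -4.78 against the parental mean and -4.67 with 1 more bin on either side. At FGFR2 it was 4.14 with 1 more bin on either side. At FGFR4 it was -1.30 against the parental mean, and its percentile difference was then -0.729. Percentiles within the chromosome gave -19.5 points at FGFR1, 29.6 at FGFR2 and -1.45 at 11q13. Window bins that differed between T0 and TamR numbered 3 of 58 with flanks of 5 bins and 22 of 203 with flanks of 20 bins, and 7 of 94 without the bins nearest the border (lowest 10% by absolute score). Without such bins of the parental libraries 0 of 97 differed from T0 at an E2 time point, against 4 of 107. Leaving out such bins removes those that change sign most easily. With 1 E2 library left out in turn the E2 count over 107 bins ranged from 3 to 4. Pathway genes that differed numbered 5 by the bin of the gene start, with KL and SOS1 added. Counts of window bins by percentile in place of score, chosen after seeing the data, are given in the report, and they moved by over 1.5 times at FGFR3, FGFR4 and, for T24, FGFR2.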
